A study of Mus musculus with 72 samples.

Results

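Sult1e1, the gene of oestrogen sulfotransferase (ENSMUSG00000029272), was followed as 1 gene of the 51912 in a count table of mouse liver RNA. It was picked because its values in these libraries stood out, so its levels and differences are given as descriptions, with their errors and with no test. Mice of 2 inbred strains, C57BL/6J and DBA/2J, were given 1 of 3 diets, named Control, Medium Protein and Low Protein, from 10 weeks of age and kept on it for 13 weeks at about 22 °C. Males and females of both strains were used, which gave 12 groups of strain, sex and diet with 6 animals in each and 1 library per animal. All mice were 23 weeks old and had been fasted for 16 h when the liver was taken, and no group carried a modified allele or a drug. The diets are known here by name only, and their composition is not given in the sources used here. Replicate numbers of libraries are names only and pair no animals across groups.

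Oestrogen sulfotransferase is a cytosolic enzyme that moves a sulfate group from the donor PAPS onto oestradiol and oestrone. The sulfated hormones no longer activate the oestrogen receptor, and sulfatases can release the free hormone again. In mouse liver the gene is known for a low basal level and for its control by nuclear receptors of xenobiotics, oxysterols and glucocorticoids. It is also known to answer oxidative stress, and its product is known from testis and fat tissue as well.

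The gene lies on the minus strand of chromosome 5, at chr5:87575969-87591594 in GRCm38 with GENCODE M21 annotation. That annotation gives it 1 transcript, which codes for protein and has 8 exons with 1242 exonic bases. Sult1d1, a related sulfotransferase of the same family, is 6942 bases away, and Sult1b1 is 37774 bases away. The promoter is shown because the groups differ in the RNA level of this gene. The 250 bases before the RefSeq start of transcription lie at chr5:87591612-87591861 in GRCm38.p6 and are printed on the minus strand, 5′ to 3′, as RefSeq gives them.
Sult1e1 promoter: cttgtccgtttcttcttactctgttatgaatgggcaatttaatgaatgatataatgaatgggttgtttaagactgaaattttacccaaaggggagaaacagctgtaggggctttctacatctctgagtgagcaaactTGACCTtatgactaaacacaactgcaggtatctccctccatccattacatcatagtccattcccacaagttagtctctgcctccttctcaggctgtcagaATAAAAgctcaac
The capitals mark matches to the letters of 2 motifs. The core letters of a nuclear receptor site, AGGTCA on the opposite strand, begin 113 bases before the RefSeq start. The letters ATAAAA of a TATA-like box, searched on the sense strand only, begin 13 bases before the RefSeq start and 30 bases before the GENCODE start, while AGGTCA lies 130 bases before the GENCODE start. Of 32851 mouse promoter windows of this length, 14.0% held AGGTCA on either strand and 10.2% held ATAAAA on the sense strand. No match was found on either strand to AGAACA (core letters of a glucocorticoid receptor site, in 16.1% of windows), to TTCNNNGAA (the STAT5 core, in 7.02%) or to GTTAAT (core letters of an HNF1 site, in 6.43%). These matches describe letters only.

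Library totals ran from 26.94 to 38.45 M counts, with a median of 32.39 M, and levels are given as CPM, counts divided by library size in M, after TMM scaling, which removes differences in library composition. Sult1e1 took 9659 counts over the 72 libraries, from 0 to 1069 in a library, and every one of the 72 values was a whole number. Of the 72 libraries, 1 held no count of the gene. Sex labels matched the data: Ddx3y, on the Y chromosome, was at 60.3 CPM or more in every male library, and Xist, from the inactive X, was at 1095 CPM or more in every female library and at most 2.29 CPM in a male one. In 1 female library, of DBA/2J on Medium Protein, Ddx3y was above 1 CPM. In 4 libraries, all of males, ribosomal-like RNA passed 2% of the counts, and in 1 it reached 15.1%. They were C57BL/6J Control replicates 1 (4.84%) and 6 (15.1%), C57BL/6J Medium Protein replicate 6 (4.07%) and DBA/2J Control replicate 4 (3.36%). No Low Protein library was among them. The labels carry codes that read like positions on a plate and run in the order of the groups, so position and group cannot be told apart. Hepatocyte markers were present in every library, and the sum of 15 of them had medians from 97700 to 107000 CPM over the groups.

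On Control, Sult1e1 was higher in females than in males of both strains, and it was lower on Low Protein than on Control in all 4 combinations of strain and sex. In C57BL/6J females on Control its lowest, median and highest values were 1.92, 5.97 and 15.2 CPM. On Medium Protein these females had 0.873, 1.70 and 5.99 CPM. On Low Protein they had 0.0978, 0.159 and 0.948 CPM. All 6 females on Low Protein thus lay below all 6 on Control, and the Medium Protein animals lay between, overlapping both. The group means were 7.47 ± 5.68 CPM on Control, 2.29 ± 1.89 on Medium Protein and 0.304 ± 0.325 on Low Protein (SD, n = 6 each).

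**Figure D1:**
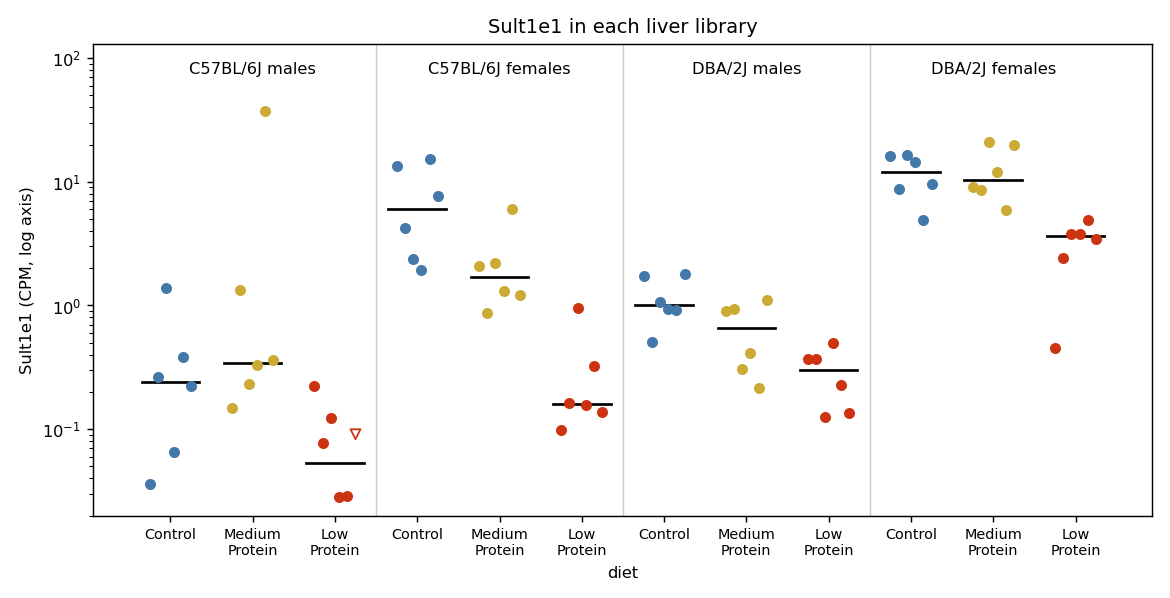
Sult1e1 in each of the 72 libraries, in CPM on a log axis, by diet within each strain and sex; each point is 1 animal and each line is a group median. The open triangle is the library with no count, placed at 0.091 CPM, the level of 3 counts. The Low Protein median is the lowest of the 3 diets in each panel, and 1 C57BL/6J male on Medium Protein, at 37.5 CPM, is above every other library.

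DBA/2J females on Control and on Medium Protein had the highest medians of the study. Their lowest, median and highest values were 4.91, 12.1 and 16.4 CPM on Control. They were 5.89, 10.4 and 21 CPM on Medium Protein. On Low Protein they were 0.457, 3.62 and 4.90 CPM. The highest Low Protein animal, at 4.90 CPM, lay just under the lowest Control animal, at 4.91 CPM, a gap within the counting error of either library (4.15 to 5.74 and 4.16 to 5.76 CPM, exact Poisson, 95%). The means were 11.7 ± 4.67 CPM on Control, 12.7 ± 6.27 on Medium Protein and 3.13 ± 1.53 on Low Protein (SD, n = 6 each).

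In males the levels were low, and counting error weighed on them. DBA/2J males had a lowest, median and highest value of 0.507, 1.00 and 1.80 CPM on Control. They had 0.217, 0.659 and 1.10 CPM on Medium Protein and 0.126, 0.298 and 0.495 CPM on Low Protein. The 6 Low Protein males rested on 4 to 15 counts each, and the highest of them, at 0.495 CPM, lay below the lowest Control male, at 0.507 CPM, again a gap within counting error, with intervals of 0.277 to 0.817 and 0.284 to 0.836 CPM. The means were 1.16 ± 0.506 CPM on Control, 0.644 ± 0.377 on Medium Protein and 0.287 ± 0.148 on Low Protein (SD, n = 6 each).

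C57BL/6J males on Low Protein had the lowest median of the 12 groups, and those on Medium Protein held the single highest library. On Control their lowest, median and highest values were 0.0357, 0.242 and 1.39 CPM, from 1 to 49 counts in a library. On Medium Protein they were 0.149, 0.345 and 37.5 CPM. On Low Protein they were 0, 0.0531 and 0.224 CPM, with 16 counts over all 6 libraries together. The library with no count allows a level of up to 0.091 CPM, taken as 3 counts, which covers counting error only. The Control and Low Protein ranges overlapped, and 3 of the 6 Low Protein males lay below every Control male. The means were 0.393 ± 0.505 CPM on Control, 6.65 ± 15.1 on Medium Protein and 0.0803 ± 0.0828 on Low Protein (SD, n = 6 each). Without the library of 37.5 CPM, the Medium Protein mean was 0.481 ± 0.483 CPM (SD, n = 5).

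Ranked by median, the 12 groups ran from DBA/2J females on Control, at 12.1 CPM, to C57BL/6J males on Low Protein, at 0.0531 CPM. After DBA/2J females on Control and Medium Protein came C57BL/6J females on Control, DBA/2J females on Low Protein and C57BL/6J females on Medium Protein. Below them came DBA/2J males on Control and on Medium Protein, C57BL/6J males on Medium Protein, DBA/2J males on Low Protein and C57BL/6J males on Control. C57BL/6J females on Low Protein ranked 11th, below 5 of the 6 male groups. Every pair of neighbours in this order had overlapping ranges. The difference in mean log2 CPM passed the pooled SD of the pair at only 3 of the 11 steps: from DBA/2J females on Medium Protein to C57BL/6J females on Control (1.03 against an SD of 1.02), from DBA/2J males on Control to Medium Protein (0.95 against 0.82) and from C57BL/6J females to males on Low Protein (1.81 against 1.27). The other 8 steps were within it.

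The Low Protein difference was fitted in edgeR with all 12 groups, and errors of log2 fold changes are standard errors. They were worked out from the fold change and its test statistic, with an estimate of spread shared by all 12 groups. The errors therefore do not measure the spread within the groups compared, and they can look small where a single library carries the value. Against Control, Sult1e1 had a log2 fold change of -4.60 ± 0.84 in C57BL/6J females, a 24.3-fold lower level. It was -2.38 ± 1.31 in C57BL/6J males, -2.00 ± 0.93 in DBA/2J males and -1.91 ± 0.66 in DBA/2J females. In each of these 3 combinations all 6 Low Protein animals lay below the Control median. The ranges of Low Protein and Control did not overlap in C57BL/6J females, DBA/2J males and DBA/2J females. As a background, 0.635%, 0.382% and 0.413% of the 19362 genes tested had all 6 Low Protein libraries below all 6 Control libraries in these combinations, and 3.03% did in C57BL/6J males. Since the gene was chosen on these differences, nothing is read from that. The value in C57BL/6J males was -1.26 without Control replicate 3, a library at 1.39 CPM, and that in C57BL/6J females was -5.37 without Low Protein replicate 3, a library at 0.948 CPM.

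**Figure D2:**
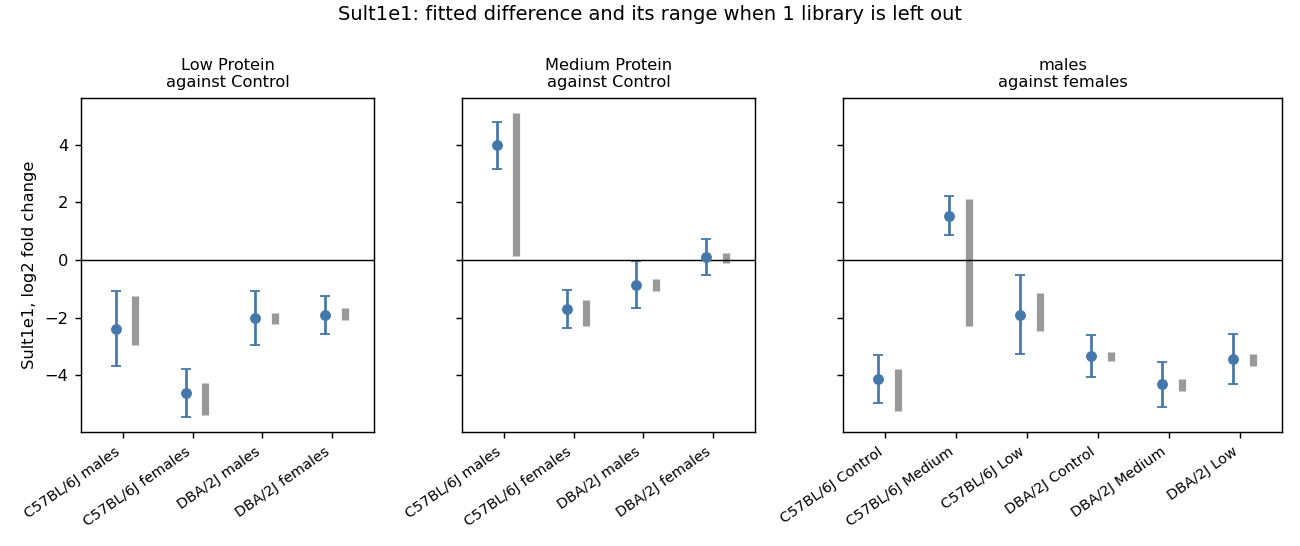
Fitted log2 fold changes of Sult1e1 (points, with bars of 1 standard error) for Low Protein against Control, Medium Protein against Control and males against females; the grey bar beside each point spans the values when 1 library at a time is left out. Low Protein against Control stays below 0 in every case drawn, while Medium Protein against Control in C57BL/6J males spans 0.13 to 5.09.

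The differences between these differences were of mixed size. In C57BL/6J the Low Protein change was 2.22 ± 1.89 log2 units smaller in males than in females, and 4.11 when the 4 libraries that stood high within their groups were left out. In DBA/2J it was -0.09 ± 1.02 between the sexes. Between strains the Low Protein change was 2.70 ± 1.06 log2 units smaller in DBA/2J than in C57BL/6J females, which became 3.46 without C57BL/6J Low Protein replicate 3. In males it was 0.39 ± 1.59, and -0.73 without C57BL/6J Control replicate 3. Both differences that hold C57BL/6J males are limited by depth, since these males held 75 counts on Control and 16 on Low Protein over each whole group. A fall as large as that of the C57BL/6J females could hardly be measured in them. In bulk tissue, fewer cells of a type and less RNA per cell cannot be told apart for any of these values.

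Medium Protein gave no common picture. Against Control, Sult1e1 had a log2 fold change of -1.70 ± 0.67 in C57BL/6J females, where 3 of the 6 Medium Protein animals lay below every Control animal. It was -0.85 ± 0.83 in DBA/2J males and 0.11 ± 0.62 in DBA/2J females, both with overlapping ranges. The value in DBA/2J females changed sign with single libraries, to -0.09 without Medium Protein replicate 3, -0.06 without Medium Protein replicate 6 and -0.04 without Control replicate 5. In C57BL/6J males it was 3.97 ± 0.82 with all libraries, 0.13 without Medium Protein replicate 5 and 5.09 without Control replicate 3. Low Protein against Medium Protein gave -2.91 ± 0.86 in C57BL/6J females, -1.14 ± 0.99 in DBA/2J males and -2.02 ± 0.66 in DBA/2J females. In DBA/2J females these ranges did not overlap, as for 0.217% of the genes tested, and the value in C57BL/6J females was -3.67 without Low Protein replicate 3. In C57BL/6J males it gave -6.35 ± 1.02, and -2.51 without that library. Comparisons of diets within a strain and sex share groups, so their values are not independent of each other.

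The authors' deposited table gives Sult1e1 values for these diet comparisons under headers such as Con vs LP, which do not state the direction of subtraction. They were read as the lower-protein diet minus the other, and under that reading every sign was that of the edgeR fit. The direction itself was thus inferred and not taken from the labels. For Low Protein against Control the authors' deposited table holds a log2 fold change of -4.55 in C57BL/6J females, -1.91 in C57BL/6J males, -1.98 in DBA/2J males and -2.09 in DBA/2J females. The largest gaps were in the comparisons with C57BL/6J males on Medium Protein. For that group against Control the authors' deposited table holds 1.72 and the edgeR fit gave 3.97, and for Low Protein against it the authors' deposited table holds -3.63 and the edgeR fit gave -6.35.

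Between the sexes, Sult1e1 was lower in males of both strains on Control. The log2 fold change of males against females was -4.12 ± 0.82 in C57BL/6J and -3.34 ± 0.73 in DBA/2J, and the first was -5.24 without C57BL/6J male Control replicate 3. In both strains all 6 Control males lay below all 6 Control females, a pattern seen in 2.46% and 3.68% of the genes tested. In DBA/2J the difference was -4.31 ± 0.78 on Medium Protein, where the ranges did not overlap, as for 3.21% of the genes tested, and -3.43 ± 0.87 on Low Protein, where 5 of 6 males lay below every female. In C57BL/6J it was -1.90 ± 1.37 on Low Protein, with overlapping ranges, and -1.14 without female Low Protein replicate 3. On Medium Protein it was 1.54 ± 0.67 with all libraries and -2.30 without the high male library, and limma-voom, which kept that library, gave -1.19.

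Between the strains, DBA/2J females had more Sult1e1 than C57BL/6J females on the lower-protein diets. The log2 fold change of DBA/2J against C57BL/6J females was 0.66 ± 0.63 on Control, 2.47 ± 0.67 on Medium Protein and 3.36 ± 0.85 on Low Protein, the last being 4.12 without C57BL/6J Low Protein replicate 3. On both of the last diets 5 of 6 DBA/2J females lay above every C57BL/6J female. In males the values were 1.44 ± 0.88 on Control, or 2.56 without C57BL/6J Control replicate 3, and 1.82 ± 1.4 on Low Protein, with overlapping ranges. On Medium Protein they were -3.38 ± 0.77 with all libraries and 0.47 without the high C57BL/6J male library.

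The difference between the sexes varied from gene to gene among the other cytosolic sulfotransferases, and few of them were called by diet. For these other genes a call means an adjusted p (Benjamini-Hochberg, 19362 genes) under 0.05 in edgeR's quasi-likelihood test. Of 20 such genes 16 passed the filter on low counts. Sult2a1 to Sult2a6, Sult3a1 and Sult3a2 held 0 to 12 counts over the 6 C57BL/6J Control males and 0 to 17 over the 6 DBA/2J ones, so they passed it through the females, and no count over the list is read between the sexes. Among the genes with counts in both sexes, Sult2a7 was lower in males, at 2.89 ± 1.03 against 13.2 ± 9.77 CPM in C57BL/6J (-2.18 ± 0.45, adjusted p = 0.000214 in edgeR), and Sult1c2 was lower too (-0.63 ± 0.23, 0.0445). Sult5a1 was higher in males (1.34 ± 0.35, 0.00356), as was Sult1b1 (0.68 ± 0.19, 0.00653). Sult1d1 was not called in C57BL/6J (-0.22 ± 0.16, 0.354) and was lower in DBA/2J males (-0.64 ± 0.16, 0.00216). For Sult1a1 the log2 fold change of males against females was -0.38 in C57BL/6J and -0.04 in DBA/2J. Of the genes that passed the filter through the females, Sult3a1 and Sult2a5 are given as levels only, with no test. Sult3a1 had 0.0745 ± 0.0304 CPM in C57BL/6J males and 70.4 ± 48.7 CPM in C57BL/6J females (SD, n = 6 each). Sult2a5 held no count in the males of either strain on Control and was at least 442-fold lower in C57BL/6J males than in females, taking 3 counts over the 6 male libraries as the floor. Sult2a8 went the other way, with 588 ± 57 CPM in C57BL/6J males and 158 ± 46.8 CPM in females (log2 fold change 1.90, adjusted p = 1.85e-13 in edgeR). The Sult2a genes resemble each other closely, so how their reads were assigned is uncertain. Sult1e1 is not counted in this list.

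On Low Protein, few of these 16 genes were called. In C57BL/6J females, where 3.25% of all genes were called, 1.78% lower and 1.47% higher, only Sult2a7 was lower (13.2 ± 9.77 to 4.36 ± 2.79 CPM, log2 fold change -1.59 ± 0.43, adjusted p = 0.024 in edgeR), and none was higher. That call was lost in limma-voom and in the fit of the 2 groups alone. In C57BL/6J males, where 9.78% of all genes were called, 5.7% lower and 4.08% higher, 3 were lower: Sult1a1, a phenol sulfotransferase, at -0.55 ± 0.13 (adjusted p = 0.00181), Sult1b1 at -0.76 ± 0.19 (0.00483) and Sult1d1 at -0.59 ± 0.16 (0.0097). Scaling by library totals alone ended the calls of Sult1a1 and Sult1d1. In DBA/2J none of the 16 was called in either sex, where 0.093% of all genes were called in males, 0.0465% in each direction, and 0.816% in females, 0.609% higher and 0.207% lower. At an unadjusted p under 0.05, edgeR gave 0 of the 16 in DBA/2J males and 3 in DBA/2J females, where DESeq2 called 1 and limma-voom 0. Sult1d1, the nearest of these genes on the chromosome, had a log2 fold change of -0.20 ± 0.16 in C57BL/6J females, -0.19 ± 0.16 in DBA/2J males and 0.35 ± 0.16 in DBA/2J females, none of them called.

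Few genes that supply the sulfate donor were called. On Low Protein, 3.25% of all genes were called in C57BL/6J females, 9.78% in C57BL/6J males, 0.816% in DBA/2J females and 0.093% in DBA/2J males. Of the 8 genes tested, Slc26a1, a sulfate transporter of the cell membrane, was lower on Low Protein in C57BL/6J females (-0.37 ± 0.09, adjusted p = 0.0163 in edgeR) and males (-0.50 ± 0.09, 0.000147). Slc35b2, which carries PAPS into the Golgi, was lower in C57BL/6J males (-0.46 ± 0.09, 0.000184), a call lost with library totals, and not called in C57BL/6J females (0.20 ± 0.09, 0.216). Papss1 and Papss2, the PAPS synthases, were not called on Low Protein in any of the 4 combinations, and in C57BL/6J females Papss2 was at 193 ± 22.2 CPM on Control and 202 ± 25.1 on Low Protein. None of the 8 was called in DBA/2J by edgeR, limma-voom or DESeq2, and 2 in females and 0 in males had an unadjusted p under 0.05.

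The receptor of the substrate's hormone and the genes that make or clear it showed scattered calls. Esr1, oestrogen receptor alpha, was lower on Low Protein in C57BL/6J females, at 29.0 ± 5.32 CPM against 44.7 ± 5.01 on Control (-0.62 ± 0.15, adjusted p = 0.0115 in edgeR), and was the only call among 12 receptor and cofactor genes there. It was called in all 9 other settings tried, and 3.25% of all genes were called in that comparison in edgeR. Esr1 was also lower in males than in females on Control, at -0.69 ± 0.15 in C57BL/6J (0.000577) and -0.60 ± 0.15 in DBA/2J (0.00302), and was not called on Low Protein in DBA/2J females (0.10 ± 0.15, 0.876). Nrip1, a nuclear receptor corepressor, was higher in C57BL/6J males on Low Protein (0.44 ± 0.10, 0.00189).

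Of 17 genes of oestrogen synthesis and breakdown, 1 was lower and none higher in C57BL/6J females on Low Protein: Ugt2b1, a glucuronosyltransferase (-0.60 ± 0.18, adjusted p = 0.0431 in edgeR), whose call was lost with library totals, without a filter and in the fit of the 2 groups alone. In C57BL/6J males 2 were higher and 2 lower, and Ugt2b1 was lower there too (-0.72 ± 0.18, 0.00394). Among all genes 1.78% were called lower and 1.47% higher in C57BL/6J females, and 5.7% lower and 4.08% higher in C57BL/6J males. Hsd17b10, a mitochondrial dehydrogenase, was lower in C57BL/6J males (-0.57 ± 0.12, 0.00061) and higher in DBA/2J females (0.57 ± 0.12, 0.00564). Of 11 genes that remove or carry steroid sulfates, Abcc4, an exporter of conjugates, was lower in C57BL/6J females (-0.67 ± 0.18, 0.0224), and Slco1a4, an uptake carrier, was lower in C57BL/6J males (-1.24 ± 0.27, 0.00101).

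The nuclear receptors known for control of Sult1e1 changed little. Of 14 receptor genes, 1 was lower and none higher in C57BL/6J females on Low Protein: Rora, a retinoid-related orphan receptor, at 85.7 ± 4.48 CPM against 106 ± 14.8 on Control (-0.30 ± 0.08, adjusted p = 0.0189 in edgeR). All genes gave 1.78% called lower and 1.47% higher in these females. In C57BL/6J males Rora was higher (0.27 ± 0.08, 0.0207), and the difference between the sexes in its Low Protein change was 0.57 ± 0.11 (0.00156), in a comparison where 4.56% of all genes were called. Each Rora call on diet was lost in the fit of the 2 groups alone, and that in females also with library totals. Nr1i2, the pregnane X receptor PXR, was higher in C57BL/6J males (0.38 ± 0.12, 0.0281), a call lost without a filter and without the outlying libraries. Nr1i3, the constitutive androstane receptor CAR, had a log2 fold change of -0.33 ± 0.17 in C57BL/6J females (0.321), and Nr3c1, the glucocorticoid receptor, of -0.26 ± 0.08 (0.0577). Nr1h3, the liver X receptor LXR alpha, was at 53.1 ± 4.68 and 55.0 ± 9.38 CPM there (-0.05 ± 0.08, 0.813). None of the 14 was called in DBA/2J by edgeR, limma-voom or DESeq2, and 1 in males and 3 in females had an unadjusted p under 0.05.

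The 3 lists of targets of those receptors did not move together on Low Protein, and the summed LXR targets were lower in C57BL/6J males. In C57BL/6J females, 1 of 13 LXR targets was lower (Abcg8, a sterol exporter, -0.41 ± 0.12, adjusted p = 0.04 in edgeR), 1 of 15 glucocorticoid receptor targets was lower (Klf9, -0.53 ± 0.14, 0.0167) and 1 of 18 CAR and PXR targets was higher (Cyp3a11, 1.12 ± 0.23, 0.00169). The list medians were 0.03, -0.12 and 0.15, against 0.009 for all genes, of which 1.78% were called lower and 1.47% higher. In DBA/2J females Cyp3a11, a drug-metabolising cytochrome P450, was higher too, from 615 ± 108 to 1550 ± 390 CPM (1.33 ± 0.23, 0.000351), as was Ces2a, a carboxylesterase (0.77 ± 0.13, 0.000265), while Sult1e1 was lower in the same libraries. In C57BL/6J males 5 of the 18 CAR and PXR targets were lower, among them Cyp2c29 (-1.15 ± 0.27, 0.00229), and 1 was higher, Gadd45b (2.53 ± 0.49, 0.000229), whose call was lost in limma-voom. All genes gave 5.7% called lower and 4.08% higher in these males. Summed over the 13 LXR targets, they had 11100 to 15900 CPM on Control and 7110 to 8230 CPM on Low Protein. Medians of that sum went from 9160 to 7460 CPM in C57BL/6J females and from 6410 to 5740 in DBA/2J females. In DBA/2J males they went from 8270 to 8690 CPM. Such sums follow the most abundant genes of a list. In DBA/2J males no gene of these 3 lists was called by edgeR, limma-voom or DESeq2, and 4 CAR and PXR targets, 1 glucocorticoid receptor target and 0 LXR targets had an unadjusted p under 0.05.

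Sult1e1 was set beside the liver genes known to differ by sex, since it was itself female-biased. Of 30 female-biased genes, 28 in C57BL/6J and 27 in DBA/2J were lower in males than females on Control and none was higher, and of 26 male-biased genes 22 and 25 were higher and none lower. Over all genes 20.8% were called in C57BL/6J, 9.18% lower and 11.6% higher in males, and 18.3% in DBA/2J, 7.85% lower and 10.4% higher. These lists were made of genes known for that bias, and some of their members passed the filter through 1 sex only, so the counts describe the lists and the sex labels. On Low Protein in C57BL/6J females, 1.78% of all genes were called lower and 1.47% higher. Of the 30 female-biased genes, 4 were lower and none higher there, with a list median of -0.43. They were Cyp3a41b (78.2 ± 73.1 to 7.81 ± 6.54 CPM, -3.32 ± 0.64, adjusted p = 0.00128 in edgeR), Cyp3a16 (-2.05 ± 0.42, 0.00209), Ntrk2 (-1.62 ± 0.34, 0.00242) and A1bg (-2.10 ± 0.51, 0.00945). In the fit of the 2 groups alone, those 4 calls and all others named for C57BL/6J females on Low Protein were lost except those of Esr1, Klf9 and Elovl3. Of the male-biased genes 2 were higher and 1 lower there, with Elovl3, a fatty acid elongase, from 1.22 ± 0.806 to 8.72 ± 2.52 CPM (2.83 ± 0.46, 7.5e-05). In C57BL/6J males the summed female-biased genes ran from 2800 to 5090 CPM on Control and from 4440 to 7490 CPM on Low Protein. Their medians were 3460 and 5490 CPM, while Sult1e1 was lower on Low Protein in these males. The summed male-biased genes had medians of 6340 and 7290 CPM there. In DBA/2J none of these sex-biased genes was called by edgeR in either sex on Low Protein. At an unadjusted p under 0.05 there were 1 female-biased and 0 male-biased genes in DBA/2J males and 0 and 4 in DBA/2J females, and limma-voom and DESeq2 each called 1 male-biased gene in the females. Of 17 growth hormone signalling genes, which set the sex pattern of liver, none was called by edgeR in C57BL/6J females or in DBA/2J, where 5 (C57BL/6J females), 2 (DBA/2J males) and 4 (DBA/2J females) had an unadjusted p under 0.05. In C57BL/6J females limma-voom called 1 of them, and in DBA/2J females DESeq2 called 1. Igfals, which stabilises circulating IGF1, was lower in C57BL/6J males (-0.49 ± 0.16, 0.0398), a call kept in 5 of 9 other settings.

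The 12 group means and the 72 libraries gave different neighbours of Sult1e1. Over the 12 group means of log2 CPM, with strain, sex and diet left in, the genes of most similar pattern were Zfp939 (Pearson r = 0.93), Mbl2, a mannose-binding lectin (0.91), Rnpc3 (0.91), Fmr1 (0.91), Cwf19l2 (0.90) and Ang (0.89). The most opposite were Pelo (-0.95), Mrps28 (-0.92), Cpt2, a carnitine palmitoyltransferase (-0.92), and Thoc5 (-0.92). The central 95% of 11501 genes lay between -0.76 and 0.74, so correlations near these values are common over 12 points that share strain and sex. Without the outlying libraries 3 of the 6 highest genes were the same.

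Within groups, each of the 72 libraries was taken as its deviation from its group mean. Among the genes that deviated most with Sult1e1 were Chd9, a chromatin remodeller (r = 0.65), Sult1d1 (0.56), Cdo1, cysteine dioxygenase (0.52), Cpm, the gene of carboxypeptidase M (0.51), and Lpin1, a phosphatidate phosphatase (0.50). The most opposite were Gga2 (-0.56), Slc17a2 (-0.56), Hsd17b6, a hydroxysteroid dehydrogenase (-0.54), and Rnf186 (-0.53). The central 95% of the 11501 genes lay between -0.32 and 0.32. Sult1d1 deviated in the same direction within 11 of the 12 groups, with a median r of 0.52 over groups of 6, and Chd9 within 10 of 12. Any r above 0 was counted, and the lowest were -0.06 for Sult1d1 and -0.15 for Chd9. Both genes were picked for their r over these same deviations and no count was made over all genes, so nothing is read from these counts. Over the 68 libraries left without the outlying ones, r was 0.52 for Chd9, 0.52 for Cpm, 0.48 for Lpin1, 0.43 for Sult1d1 and 0.32 for Cdo1. It was -0.45 for Rnf186, -0.44 for Slc17a2, -0.31 for Gga2 and -0.23 for Hsd17b6. The central range given above holds for the 72 deviations, and none was taken for the 68. Ranked from the highest r of the 11501 genes over the 68, Gga2 was still near the low end, at 11305, and Hsd17b6 was at 10666. The highest gene was then Ddit4, a stress-induced inhibitor of growth signalling, at 0.53, and 2 of the 6 highest genes were the same. Points of a library share its RNA and its depth.

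**Figure D3:**
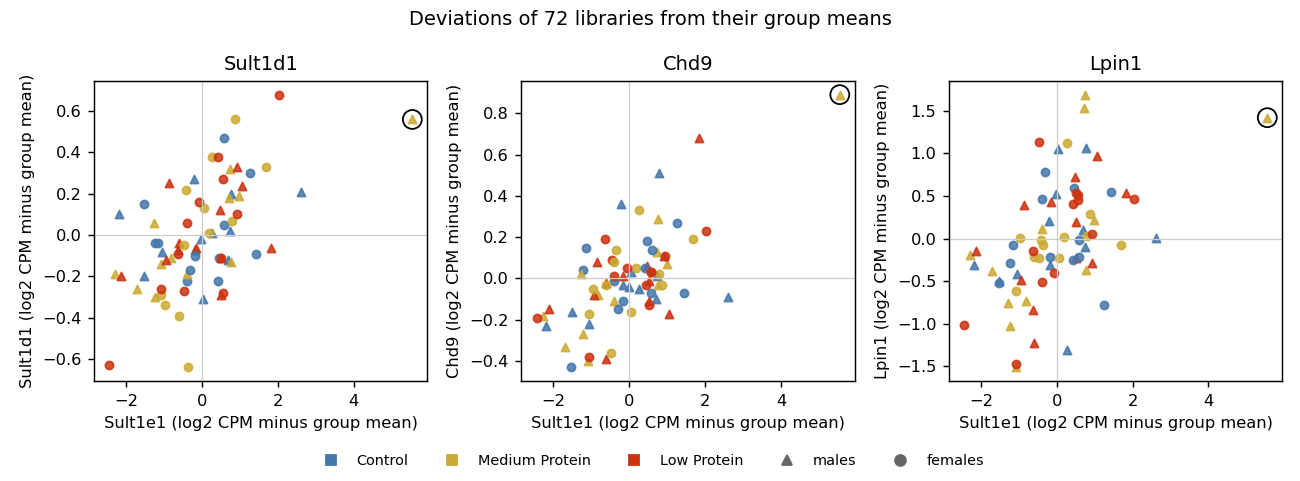
Deviation of each of the 72 libraries from its group mean, in log2 CPM, for Sult1e1 (horizontal) against Sult1d1, Chd9 and Lpin1 (vertical); colours are diets, triangles males and circles females. The ringed triangle is the C57BL/6J male on Medium Protein at 37.5 CPM of Sult1e1, which lies 5.55 log2 units above its group mean.

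By list, the 15 glucocorticoid receptor targets had a median r with Sult1e1 of 0.29 over the 72 deviations, and 0.21 over the 68 without the outlying libraries. The median over all 19361 other genes was 0 and -0.01. The 12 macrophage markers had a median of -0.25, and -0.19 without the outlying libraries. They were the highest and the lowest of the 24 list medians over the 72 deviations. A list median varies less than single genes, so the range of single genes is not set beside them, and they are given as a description.

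The library at 37.5 CPM, C57BL/6J male Medium Protein replicate 5, held 1069 counts of Sult1e1, with a counting interval of 35.3 to 39.8 CPM (exact Poisson, 95%). The other 5 males of the group ran from 0.149 to 1.33 CPM, so it lay 6.65 log2 units above their mean log2 CPM. Its Sult1d1 was 145 CPM and its Chd9 201 CPM, each the highest of its group, as were 3021 of all 19362 genes. Both genes were picked for their r over deviations that include this library, so nothing is read from that. Of the 15 glucocorticoid receptor targets, 4 were above all 5 other males and none was below, with a median of 0.68 log2 units above their mean. Mt2, a metallothionein, was at 87.7 CPM against 1.27 to 135 in the others, and Tat, tyrosine aminotransferase, at 1960 CPM against 274 to 2390. Cdkn1a was at 2.45 CPM, against 0.149 to 4.38.

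In this library the female-biased genes were on balance lower and the male-biased genes higher. Of 30 female-biased genes, 1 was above and 11 were below all 5 other males, with a median of -0.72 log2 units, and of 26 male-biased genes 14 were above and 2 below, with a median of 0.69. Acot3, a female-biased acyl-CoA thioesterase, was at 8.48 CPM against 19.7 to 176 in the others, and Abcd2 at 3.61 CPM against 20 to 43.8. Moxd1, a male-biased gene, was at 138 CPM against 2.42 to 98.2, and Selenbp2 at 602 CPM against 32.0 to 269. Of 10 tested adipocyte markers 1 was above and 5 were below all others, with a median of -1.35. Of 12 macrophage markers none was above and 10 were below, and of 7 red blood cell markers 6 were above and none below. The part of cell composition was not tested. Over all 19362 genes, 3021 were above and 3050 below all 5 others, with a median of 0.

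**Figure D4:**
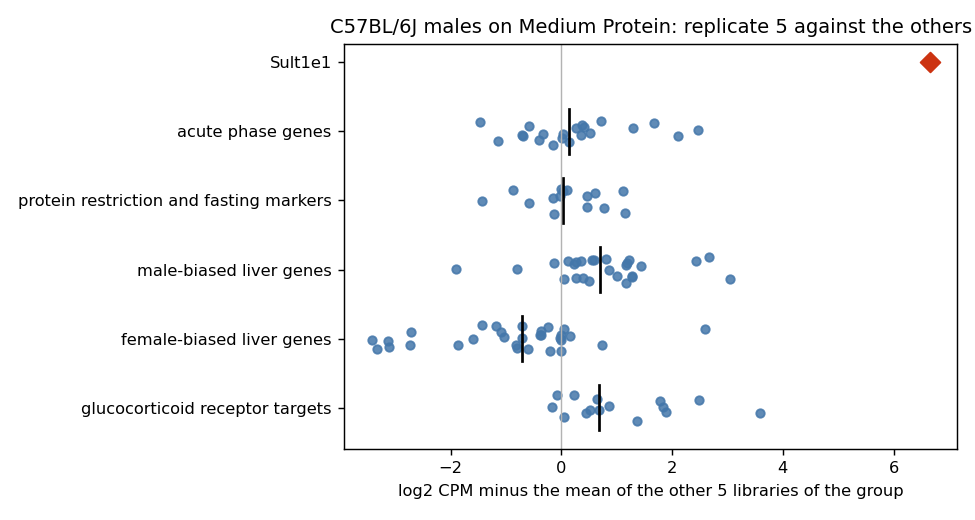
Each point is 1 gene: its log2 CPM in C57BL/6J male Medium Protein replicate 5 minus the mean of the other 5 males of that group, by gene list, with a line at each list median; the diamond is Sult1e1, at 6.65. Glucocorticoid receptor targets and male-biased genes have medians of 0.68 and 0.69, and female-biased genes of -0.72.

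Markers of other tissues that express Sult1e1 were measured in the same libraries. Of 15 adipocyte markers, the summed level in C57BL/6J females ran from 92.5 to 260 CPM on Control, with a median of 99.5, and from 149 to 208 CPM on Low Protein, with a median of 184. In DBA/2J females it ran from 42.1 to 59.1 CPM on Control and from 42.3 to 87.2 on Low Protein. Plin4 and Lipe, with medians of 48.2 and 14.2 CPM over the libraries, were the most abundant of the list. Adipoq, the defining adipokine, was at 0 in 27 of 72 libraries and reached 1.17 CPM at most, and Lep was at 0 in 66. Of 12 markers of Leydig and other steroid-producing cells, Lhcgr was at 0 in 65 libraries and Hsd17b3 in 68, with at most 4 and 1 counts. The summed Leydig list, led by Cyp17a1 with a median of 76 CPM, ran from 159 to 304 CPM in C57BL/6J females on Control and from 81.3 to 192 on Low Protein, with medians of 234 and 162. In DBA/2J females it ran from 87.3 to 199 CPM on Control and from 79.7 to 317 on Low Protein, with medians of 102 and 166. The part of other cells in the Sult1e1 values was not tested.

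Markers of protein restriction and of blood differed on Low Protein in C57BL/6J males. On that diet 4.08% of all genes were called higher and 5.7% lower in these males, and 1.47% higher and 1.78% lower in C57BL/6J females. In DBA/2J the shares were 0.609% higher and 0.207% lower in females and 0.0465% in each direction in males. Of 15 markers of protein restriction and fasting, 5 were higher on Low Protein in C57BL/6J males, among them Asns, asparagine synthetase (1.26 ± 0.929 to 17.1 ± 6.14 CPM, adjusted p = 9.11e-06 in edgeR). In C57BL/6J females 1 was higher, Aldh1l2 (1.83 ± 0.42, 0.00609), and in DBA/2J none was called in either sex by edgeR, limma-voom or DESeq2, with 1 gene in males and 3 in females at an unadjusted p under 0.05. Of 21 acute phase genes, 1 was higher in C57BL/6J females, Orm2 (3.83 ± 0.90, 0.00759), whose SD of 332 CPM exceeded its Low Protein mean of 140 CPM and whose call was lost in limma-voom. The summed acute phase list there had a median of 14900 CPM on Control and 13800 CPM on Low Protein. Red blood cell markers were higher on Low Protein in C57BL/6J males, for 5 of 7 genes. Of the 10 adipocyte markers tested 2 were higher there and of the 15 hepatocyte markers 4 were lower, while 2 hepatocyte markers were higher in DBA/2J females. No marker of macrophages, stellate cells, endothelium, lymphocytes or pancreatic acini was called on Low Protein in any combination by edgeR, limma-voom or DESeq2, with 0 to 2 genes per list at an unadjusted p under 0.05, and 1 of 8 cholangiocyte markers was lower in C57BL/6J males. Their part in the Sult1e1 values was not tested.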

How the data were processed

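RNA of 72 mouse livers was sequenced as stranded libraries of polyadenylated RNA, with 2 lanes merged for each library, per the labels' protocols. The authors' deposited table holds RSEM expected counts per gene, and 11.625% of its values were not whole. RSEM, edgeR, limma and R 3.4.3 are named in the submitters' processing notes. For the aligner, the genome build and other versions: not given in the sources used here. A second deposited table holds the authors' log2 fold changes and p-values for 17575 genes, with an F score per gene that was not used; of it, only the log2 values of Sult1e1 were read.

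Sult1e1 was found by its identifier through the symbol column of the second table, and a reference table of gene names gave symbols for 51633 of 51912 identifiers. Positions are from GENCODE M21. Expected counts were rounded, and filterByExpr left 19362 genes. In R 4.3.3, edgeR 4.0.16 fitted 12 group means to the 72 libraries by quasi-likelihood, with TMM scaling (common biological coefficient of variation 0.207). This gave 28 comparisons, with Benjamini-Hochberg adjustment over all genes in each, two-sided. Log2 CPM used a prior count of 0.5. The fit was tested on simulated data. Intervals and floors cover counting error only.

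Sult1e1 and the 24 gene lists, of which 2 genes had no identifier, were chosen with earlier results of these data known. Named were Sult1e1, any tested member of the sulfotransferase, sulfate donor, oestrogen receptor and control receptor lists, per other list and comparison up to 4 called genes of smallest p and 2 others of largest change, and the 6 highest and 4 lowest correlations among genes of mean log2 CPM of at least 0, predicted genes left out; 1 of these is not reported here. Genes named for the high library, for the marker checks, called genes outside the smallest p of their list and Ddit4 were picked after their values were seen. Alternatives were RLE factors, library totals, other filters, limma-voom 3.58.1, DESeq2, fits of the compared groups, group medians, and fits without outlying libraries or each library in turn. Fits without libraries rich in ribosomal-like RNA, and without a female library with some Y-linked RNA, were added after the data were seen.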

Additional observations from a re-analysis of the deposited data

Results flagged for a closer look

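Within each of the 12 groups the highest and the lowest library were compared with their nearest neighbour by Dixon's ratio at its 95% critical value. This was done for Sult1e1 on CPM and on log2 CPM, and 5 libraries lay beyond that value. For 1 group on 1 scale chance gives such a library about 1 time in 20, but here 12 groups were taken on 2 scales, for a gene chosen partly for such libraries. The 5 are therefore a description and no test.

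Of these, 4 were high on the CPM scale, and none of the 4 lay beyond the critical value on log2 CPM. C57BL/6J male Medium Protein replicate 5 was at 37.5 CPM. C57BL/6J male Control replicate 3 was at 1.39 CPM, and in it 9 of 30 female-biased genes were above the other 5 males and 2 below, against 3628 above and 3159 below of all 19362 genes. Of 15 glucocorticoid receptor targets, 3 were above and none below in it. C57BL/6J female Medium Protein replicate 5 was at 5.99 CPM. In it 1 of 15 glucocorticoid receptor targets was above the other 5 females and 5 were below. Of 30 female-biased genes, 5 were above and 13 below, against 3620 above and 3478 below of all 19362 genes. C57BL/6J female Low Protein replicate 3 was at 0.948 CPM, where 6 of 16 sulfotransferases and 7 of 15 glucocorticoid receptor targets were above the other 5 females and none of either list was below, against 3377 above and 3434 below of all 19362 genes. Cell markers stood apart in it too. Of 12 macrophage markers 7 and of 9 lymphocyte markers 6 were below the others and none was above, and of 15 hepatocyte markers 7 were above and 1 below. The part of cell composition was not tested.

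The other was low on the log2 CPM scale. DBA/2J female Low Protein replicate 1 was at 0.457 CPM, where 8 of 16 sulfotransferases were below the other 5 females and 3 above, against 3246 below and 3656 above of all 19362 genes. Of 15 glucocorticoid receptor targets, 4 were below and 3 above in it.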

How the results depend on the processing

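Low Protein against Control stayed below 0 for Sult1e1 in all 4 combinations, in 43 of 43 values under other settings and in 48 of 48 with 1 library left out. With 1 library left out the log2 values ran from -2.95 to -1.26 in C57BL/6J males, -5.37 to -4.27 in C57BL/6J females, -2.22 to -1.83 in DBA/2J males and -2.07 to -1.68 in DBA/2J females. No left-out library moved any of the 28 comparisons by more than 1 replicate SD except C57BL/6J male Medium Protein replicate 5, which moved the 4 that hold its group. That SD was taken over the same libraries, with the left-out library included, so a single library could seldom pass it. The shift from -2.38 to -1.26 in C57BL/6J males did not pass it, for example, so this count says little about stability.

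Of the other settings, leaving out the 4 libraries high in CPM and taking group medians moved the comparisons of C57BL/6J males on Medium Protein most, which rest on their replicate 5. Medium Protein against Control was then 1.25 and 0.49, and Low Protein against Medium Protein -2.51 and -2.49. Males against females on Medium Protein in C57BL/6J were -1.73 and -2.22, and DBA/2J against C57BL/6J males on Medium Protein 0.47 and 0.80. With limma-voom the last 3 of these were -3.64, -1.19 and -0.57. With 1 library left out these comparisons ran from 0.13 to 5.09, -6.91 to -2.51, -2.30 to 2.12 and -3.64 to 0.47. The difference between the sexes in the Low Protein change of C57BL/6J was 4.11 without the 4 libraries.

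Library totals in place of TMM shifted the median log2 fold change of all genes to 0.257 for Low Protein against Control in C57BL/6J males, and to -0.353 and -0.294 for males against females in C57BL/6J and DBA/2J. Calls over all genes were then 5337 higher and 315 lower (5652) against 790 and 1104 in C57BL/6J males on Low Protein, 295 against 629 in C57BL/6J females, 14 higher and 5 lower against 9 and 9 in DBA/2J males, and 39 higher and 30 lower (69) against 118 and 40 in DBA/2J females. Between the sexes on Control they were 476 higher and 8465 lower (8941) against 2243 and 1778 in C57BL/6J, and 553 higher and 6735 lower (7288) against 2019 and 1520 in DBA/2J. Without a filter on low counts, Low Protein calls were 1258 in C57BL/6J males, 337 in C57BL/6J females and 102 in DBA/2J females. DESeq2 gave 31 in DBA/2J males and 257 in DBA/2J females. The fit of the compared groups alone gave 87 in C57BL/6J females, 0 in DBA/2J males (1374 at an unadjusted p under 0.05 in edgeR) and 75 in DBA/2J females, and it had no Sult1e1 value for 5 comparisons, whose libraries left the gene under the filter. Without libraries over 2% ribosomal-like RNA, 9 genes were called in DBA/2J males. The cause of these shifts was not tested. No paired analysis was possible because the labels' animal codes pair no samples across groups. Levels under 3 counts, as in 3 of the C57BL/6J males on Low Protein, are limited by depth.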
